A study of Mus musculus with 8 samples.

Results

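The Adamts proteases and the lecticans, the proteoglycans they cleave, are described here in the embryonic medial ganglionic eminence (MGE) of control mice and of mice in which Nkx2-1 was deleted. The members are 6 protease genes (Adamts1, Adamts4, Adamts5, Adamts9, Adamts15 and Adamts20) and 4 lectican genes (Vcan, Bcan, Ncan and Acan), which makes 10 genes of the 17178 that the array probes could be matched to and 15 probes of 41174. They were named by symbol with their differences between these same groups known. For that reason their values are given as a description without a p-value, and no count of members is support for a shared change. Where a member is named as called or not called, this only places it against the threshold used for all probes. It is no test of that member, since the same contrast was known when it was chosen. RNA of microdissected MGE from embryonic day 13.5 was hybridised to 8 arrays of 1 colour, 4 labelled WT and 4 labelled KO, called Nkx2-1cKO below. Both groups have the strain label C57BL/6 and the genotype Nkx2-1flox/+, and they differ in the Olig2tva-cre allele, which the WT samples lack and the Nkx2-1cKO samples carry. Cre is thus made where Olig2 regulatory sequence is active, so the deletion is limited to those cells and their descendants. The comparison asks which transcripts of the MGE change when NKX2-1, the transcription factor that specifies this region, is lost. No WT sample carries the Cre allele, so an effect of that allele itself cannot be told apart from loss of NKX2-1 and was not tested.

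Lecticans are large secreted proteoglycans that carry chondroitin sulfate chains. Their N-terminal end binds hyaluronan, an interaction held by link proteins, and their C-terminal end binds tenascins, and together these molecules form much of the extracellular matrix of the brain. Adamts proteases are secreted zinc metalloproteases, and the 6 members belong to the group that cuts lectican core proteins. The MGE is the source of many cortical and striatal interneurons, and later in life lecticans build the perineuronal nets around many of these cells.

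All signals are log2 of the background-subtracted intensity relative to the 75th percentile of the same array, so 0 is the level of that percentile. Signals of different probes are not compared with each other, since brightness also depends on the probe. Each array had between 71.1% and 79.5% of its probes well above background, no spot was saturated, and the 75th percentile lay between 2028 and 2574 intensity units. Nkx2-1 checked the labels: its signal was 1.82 to 1.95 in WT and -4.67 to -4.26 in Nkx2-1cKO, which left 1.24% of the WT mean, although the labels give a floxed allele over a wild-type allele in both groups. Of 31283 tested probes, limma called 1.04% different at an adjusted p under 0.05, 0.614% lower and 0.422% higher in Nkx2-1cKO. In 4.12% of the probes every Nkx2-1cKO array was below every WT array, and in 2.33% every one was above. The labels do not say whether the samples came from separate litters or embryos, so p-values measure only the spread between these samples.

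The promoters of 3 members are shown because they belong to a protease and a lectican with lower signal in Nkx2-1cKO and to a lectican with nearly equal signal in both groups. RefSeq promoter windows on GRCm38.p6 were given for 7 of the 10 members, all but Adamts4, Adamts5 and Adamts15. Each run below is the 250 bases before the annotated start, read 5′ to 3′ on the strand of the gene, and capitals mark matches on either strand to the motifs CAAGTG (an NKX2-1 core), TAATTA (a LIM homeodomain core), ATGCAAAT (the octamer), AACAAT (a SOX core), CANNTG (the E-box, which the NKX2-1 core also meets) and TATAA. Adamts1 lies at chr16:85803114-85803363 on the minus strand, Bcan at chr3:88000357-88000606 on the minus strand and Ncan at chr8:70120845-70121094 on the minus strand.
Adamts1: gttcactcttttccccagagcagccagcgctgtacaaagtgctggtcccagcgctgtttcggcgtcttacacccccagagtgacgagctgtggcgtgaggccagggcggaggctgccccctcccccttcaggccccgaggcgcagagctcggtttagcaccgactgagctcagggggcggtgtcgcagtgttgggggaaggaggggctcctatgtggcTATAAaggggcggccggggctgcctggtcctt
Bcan: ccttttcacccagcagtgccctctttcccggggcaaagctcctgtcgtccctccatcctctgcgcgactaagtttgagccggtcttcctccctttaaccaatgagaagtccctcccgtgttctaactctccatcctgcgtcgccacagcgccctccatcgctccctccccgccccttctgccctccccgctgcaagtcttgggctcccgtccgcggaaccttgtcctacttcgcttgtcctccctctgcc
Ncan: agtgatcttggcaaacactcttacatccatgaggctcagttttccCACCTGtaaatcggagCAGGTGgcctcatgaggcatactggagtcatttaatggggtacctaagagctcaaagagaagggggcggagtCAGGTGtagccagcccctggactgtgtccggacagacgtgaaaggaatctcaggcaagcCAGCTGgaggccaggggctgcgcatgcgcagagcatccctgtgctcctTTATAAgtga
The Adamts1 window held only a TATAA match, 32 bases before the start, and its GC content was 65.6%. The Bcan window held none of the 6 motifs, with a GC content of 62.0%. The Ncan window held 4 E-boxes and a TATAA match on each strand that overlap 9 and 10 bases before the start. Over all 32817 windows of this length, 66.2% held an E-box, 22.8% TATAA, 11.6% CAAGTG, 9.42% AACAAT, 4.85% TAATTA and 1.6% the octamer. Among the other windows, Adamts9, Vcan and Acan had 1 E-box each, and Adamts20 had 2, of which 1 was also the only CAAGTG match of the 7 members. Absence of a match says only that these letters are not in these 250 bases. Adamts1 and Adamts5 are close neighbours on chromosome 16, with 1 other gene of the table, 4930556C24Rik, between them.

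Adamts5 showed the largest fall among the members, to 14.2% of the WT mean. Adamts5, known as an aggrecanase, also cuts versican and brevican. Its brighter probe gave 0.79, 0.90, 0.49 and 0.63 in the 4 WT arrays and -2.04, -1.93, -2.14 and -2.34 in the 4 Nkx2-1cKO arrays. All Nkx2-1cKO arrays were far below all WT arrays, and the spread within a group was small beside the gap. The means were 0.70 ± 0.18 and -2.11 ± 0.17 (SD, n = 4 each), a difference of -2.82 (SE 0.12), or 7.04-fold. It ranked 11 from the lowest difference among 14449 genes, and the difference was -2.78 among the arrays of slide 1 and -2.85 among those of slide 2. The dimmer Adamts5 probe gave -3.13, -3.13, -3.37 and -3.53 in WT and -6.95, -6.36, -6.87 and -6.21 in Nkx2-1cKO. It did not overlap either, with a difference of -3.31 (SE 0.23), and it passed the background flag on all 4 WT arrays and on 2 of the Nkx2-1cKO arrays.

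Adamts1, a protease known for its part in ovulation and in the growth of blood vessels, fell less. Its brighter probe gave -2.22, -2.44, -2.58 and -2.29 in WT and -3.22, -3.39, -3.10 and -3.14 in Nkx2-1cKO. The groups did not overlap, and Nkx2-1cKO was at 56.2% of the WT mean, a difference of -0.83 (SE 0.12). The dimmer probe gave -5.60, -5.87, -6.23 and -6.02 in WT and -7.17, -7.42, -6.83 and -7.19 in Nkx2-1cKO, again without overlap. It passed the background flag on 4 WT arrays and on 0 Nkx2-1cKO arrays, so the difference has only a bound: WT was at least 1.92-fold higher, taken against the dimmest signal that still counted as well above background on each Nkx2-1cKO array where that exceeded the probe's own. This dimmer probe was not called. The call of the brighter probe was lost with centring of each array on its median, at a difference of -0.71, and with normexp background correction, at -0.27. It was also lost with the replicate number as a block.

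Adamts15 and Adamts4 differed by less. Adamts15, a member of the aggrecanase branch, gave -1.59, -1.71, -1.44 and -1.57 in WT and -2.20, -1.96, -2.13 and -2.12 in Nkx2-1cKO, without overlap. The difference was -0.52 (SE 0.10), on slide 1 and on slide 2 alike, and Nkx2-1cKO was at 69.7% of WT. It was called, but close to the threshold: it was called in 3 of 17 alternatives and in none of the 8 that left out an array, where the difference stayed between -0.57 and -0.47. Adamts4, the other classical aggrecanase beside Adamts5, gave -2.88, -3.14, -3.52 and -3.21 in WT and -3.61, -3.88, -3.61 and -3.57 in Nkx2-1cKO. The groups did not overlap, but the lowest WT array came near the Nkx2-1cKO arrays, and the difference of -0.48 (SE 0.16) was not called. With normexp its sign turned, to 0.10.

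Adamts9 and Adamts20 showed overlapping groups. Adamts9, which is needed early in development and cuts versican, gave -2.23, -1.83, -2.20 and -1.82 in WT and -2.08, -2.23, -2.25 and -2.53 in Nkx2-1cKO, a difference of -0.25 (SE 0.14). Its second probe was well above background on 1 array of each group and was not tested. Adamts20, known from the white belt that its loss gives in mouse coats, gave -3.87, -6.79, -7.60 and -6.47 in WT and -7.43, -8.67, -7.58 and -6.33 in Nkx2-1cKO. Its signal was near background, passing on 3 WT arrays and 1 Nkx2-1cKO array, so it met the filter for testing mostly through WT. The difference of -1.32 (SE 0.81) rested largely on 1 WT array, and with normexp it was 0.51. Its second probe was above background on 0 of 8 arrays.

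**Figure D1:**
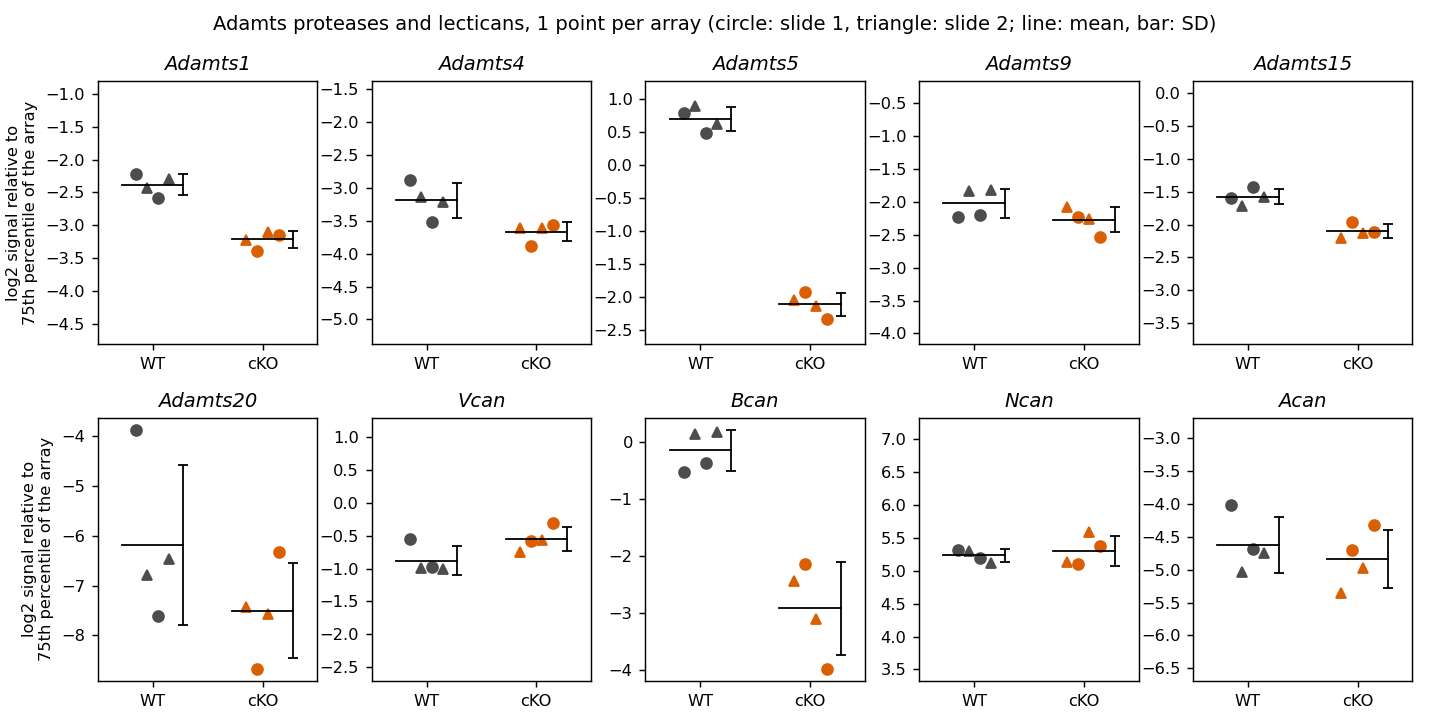
Signal of each member gene per array, as log2 relative to the 75th percentile of the array on the y axis, for WT (grey) and Nkx2-1cKO (orange, labelled cKO). Circles are slide 1 and triangles slide 2, lines are means and bars SD (n = 4), and each panel has its own y range of at least 4 log2 units. Adamts5 and Bcan show the widest gaps between groups, and Adamts1, Adamts4 and Adamts15 have smaller gaps without overlap.

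Among the lecticans, Bcan fell to 14.7% of the WT mean and the other 3 were not called. Bcan, or brevican, is a lectican largely restricted to the nervous system, made by glia, oligodendrocyte precursors and some neurons. It gave -0.53, 0.14, -0.38 and 0.17 in WT and -2.45, -2.15, -3.11 and -3.98 in Nkx2-1cKO. The lowest WT array was well above the highest Nkx2-1cKO array, while the Nkx2-1cKO arrays were widely spread among themselves. The means were -0.15 ± 0.36 and -2.92 ± 0.81 (SD, n = 4 each), a difference of -2.77 (SE 0.36), or 6.82-fold, and Bcan ranked 12 from the lowest among the 14449 genes, next to Adamts5. Slide 1 gave -2.61 and slide 2 gave -2.93, and the difference ranged from -3.03 to -2.21 over the alternatives.

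Vcan, Ncan and Acan overlapped between the groups. Vcan, or versican, the lectican of early matrix and migratory paths, gave -0.55, -0.99, -0.98 and -1.005 in WT and -0.74, -0.59, -0.57 and -0.31 in Nkx2-1cKO on its brighter probe. Most Nkx2-1cKO values were above most WT values, with a difference of 0.33 (SE 0.13) there and of 0.41 (SE 0.15) on the dimmer probe, and neither was called. Ncan, or neurocan, a lectican of the developing brain, gave 5.32, 5.31, 5.20 and 5.11 in WT and 5.13, 5.10, 5.58 and 5.37 in Nkx2-1cKO. Its groups lay over each other, the difference was 0.06 (SE 0.11), and its sign turned in 3 alternatives. Acan, or aggrecan, best known from cartilage and from perineuronal nets, gave -4.02, -5.04, -4.69 and -4.75 in WT and -5.36, -4.69, -4.98 and -4.32 in Nkx2-1cKO. It differed by -0.21 (SE 0.29), and by 0.58 with normexp.

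All 10 genes had a tested probe, 13 of the 15 probes in all, and 9 were represented by a probe well above background on all 8 arrays. Of the genes, 4 were called lower (Adamts1, Adamts5, Adamts15 and Bcan) and 0 higher with limma. All 6 proteases and 2 of the 4 lecticans had a lower mean in Nkx2-1cKO. The median difference was -0.68 over the proteases and -0.07 over the lecticans, beside -0.002 over all genes. Every Nkx2-1cKO array was below every WT array for 4 proteases and 1 lectican, by the probe that represents each gene. Over all tested probes, 0.614% were called lower and 4.12% had every Nkx2-1cKO array below every WT array. Of all genes represented by a probe, 1.34% were called in either direction. These shares stand beside the counts because the genes were chosen on the same contrast, so a count above them is no support. In bulk tissue, fewer cells of a type and less RNA per cell cannot be told apart.

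**Figure D2:**
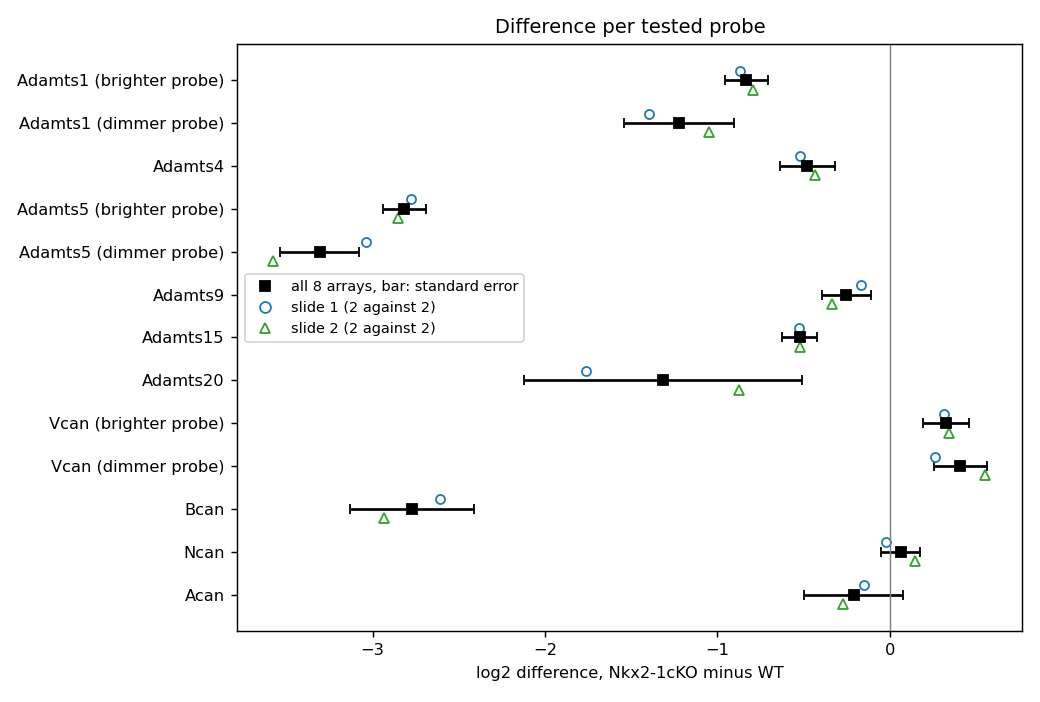
Difference in log2 signal, Nkx2-1cKO minus WT, on the x axis for each tested probe of the members, over all 8 arrays (black squares, bars SE) and within slide 1 (circles) and slide 2 (triangles), each with 2 arrays against 2. For every probe but that of Ncan, the slides gave differences of the same sign, and Ncan lay near 0 on both.

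The arrays lay on 2 slides, each with 2 WT and 2 Nkx2-1cKO arrays, and the slide is a measure that did not enter the choice of members. In the limma model with group and slide, 14.3% of all probes differed between slides, and 0 of the 13 member probes did. The largest slide difference of a member gene was 0.60 in size, for Acan. The 4 called members were also called with slide as a block, but that fit repeats the contrast the members were chosen on and is no further support.

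The genes with the most similar profile over the 8 arrays are given as a description, since any gene with a large gap between groups correlates with any other. For Adamts5 the highest Pearson r belonged to Sema3e (0.998), a secreted semaphorin, then to Nkx2-1 itself (0.993) and Lhx6 (0.993), the LIM homeodomain factor of MGE-derived interneurons. Of 14419 genes, 98 had an r over 0.95 with Adamts5. Genes similar to Bcan included Kctd12 and Fam155a, each at 0.988, and 41 genes had an r over 0.95. Kctd12 differed between groups by -1.46 and Fam155a by -0.30, both less than Bcan itself, so the likeness is in the profile over the arrays and not in the size.

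The other genes of the lectican matrix had few calls. Of 101 genes in 7 lists, 93 were on the array and 87 were tested, and with limma 1 was called lower and 0 higher, while 15 had an unadjusted p under 0.05. That is 1.15% called, beside 1.34% of all genes represented by a probe. The 15 of 87 with an unadjusted p under 0.05 are a larger share than the 9.51% of all genes. Of the 87, 10 did not overlap between groups, in either direction, beside 4.12% of all probes lower and 2.33% higher without overlap. Whether the lists differ from all genes was not tested. The median difference over the 87 genes was -0.01.

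The gene called was Ptprd, a receptor tyrosine phosphatase of the family that binds chondroitin sulfate and heparan sulfate chains. It gave 1.84, 1.84, 1.81 and 1.62 in WT and 1.07, 1.34, 1.25 and 1.15 in Nkx2-1cKO. The groups did not overlap, and Nkx2-1cKO was at 67.1% of WT, a difference of -0.58 (SE 0.09, limma adjusted p = 0.016, n = 4 each). With centring on the median it was -0.46 and no longer called (limma adjusted p = 0.271), and over all alternatives the adjusted p ranged from 0.0078 to 0.271. The call was also lost with the replicate number as a block, and without WT replicate 2, WT replicate 3, Nkx2-1cKO replicate 1 or Nkx2-1cKO replicate 4. Differences were between -0.63 and -0.53 over all arrays left out. The other 5 receptors were not called, among them Rtn4rl2 at -0.19 and the Nogo receptor Rtn4r at 0.14.

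None of 11 other Adamts proteases was called by limma, and 2 had an unadjusted p under 0.05. Adamts16 gave values without overlap, with a difference of -0.81 (SE 0.22, limma adjusted p = 0.204), while Adamts2, a procollagen protease, at -1.21 (SE 0.52) and Adamts13, which cuts von Willebrand factor, at -1.13 (SE 0.56) overlapped between groups. WT replicate 1 was the highest array for Adamts2, at -3.29, and for Adamts13, at -4.88. The next WT arrays were at -4.35 for Adamts2 and -6.67 for Adamts13. Adamts13 passed the background flag on 4 WT arrays but on 1 Nkx2-1cKO array, so it met the filter mostly through WT and its difference is uncertain in size. Of the 3 tested Adamts-like proteins, which lack the protease domain, 0 were called and 0 had an unadjusted p under 0.05, with Adamtsl1 at -0.53 and Adamtsl2 at 0.09.

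Among the partners that hold lecticans in place, 0 of 13 tested genes for hyaluronan synthesis, breakdown and binding, link proteins and tenascins were called by limma, and 2 had an unadjusted p under 0.05. Those were Has3, a hyaluronan synthase, at 0.41 (SE 0.10, limma adjusted p = 0.113) and Cemip2, a hyaluronan-degrading protein of the cell surface, at 0.59 (SE 0.18, limma adjusted p = 0.285). Neither overlapped between groups, and with slide as a block Has3 was called higher (limma adjusted p = 0.0346). Has1 differed by -0.96 (SE 0.60), with overlap, and passed the background flag on 3 arrays of WT but 1 of Nkx2-1cKO. Its highest array was WT replicate 1, at -4.98, and the next WT array was at -6.74. Hapln1, Hapln2, Tnn and Cemip were too dim to be tested.

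Of 20 tested genes of chondroitin sulfate synthesis, 0 were called by limma and 3 had an unadjusted p under 0.05, and the widest differences were -0.36 for Csgalnact1, which starts the chains, and 0.31 for the sulfotransferase Chst15. Of 20 other proteoglycans, 0 were called and 4 had an unadjusted p under 0.05. Dcn, or decorin, differed by -2.45 (SE 0.98, limma adjusted p = 0.526), with overlapping groups, and Spock3, or testican-3, by -0.59 (SE 0.19, limma adjusted p = 0.332). Of 14 inhibitors, activators, clearance receptors and other matrix proteases, 0 were called and 3 had an unadjusted p under 0.05. Timp4, an inhibitor of metalloproteases, did not overlap between groups, with a difference of -0.83 (SE 0.20, limma adjusted p = 0.117), and it was called lower with slide as a block (limma adjusted p = 0.0277). Mmp16, a membrane-type matrix metalloprotease, differed by -0.79 (SE 0.48), with overlap, and its highest array was WT replicate 1, at -4.78.

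**Figure D3:**
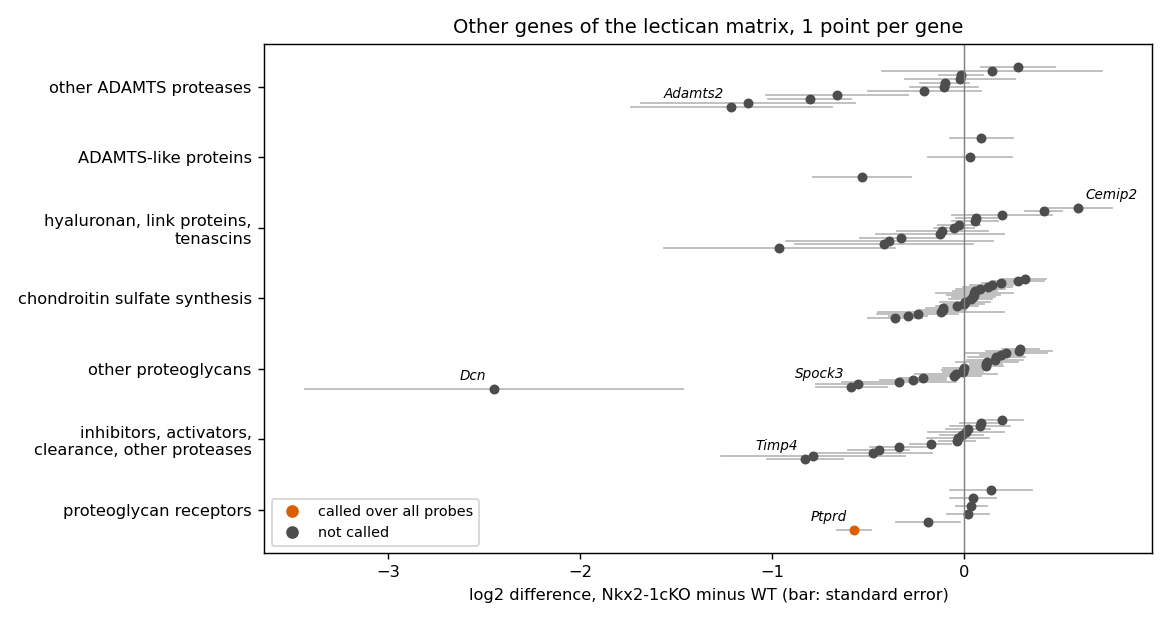
Difference in log2 signal, Nkx2-1cKO minus WT, on the x axis for the 87 tested genes of 7 lists around the lectican matrix, 1 point a gene with its SE as a bar. Ptprd (orange) is the gene that limma called, and most other points lie near 0.

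Markers of other cells were set beside the members. Of 10 MGE and subpallium markers, 2 were called lower, Lhx6 at -4.20 and Lhx8 at -3.67, and the summed linear level of the list, in units of each array's 75th percentile, was 81.9 to 83.3 in WT and 55.0 to 57.5 in Nkx2-1cKO. The other 8 were not called, but 8 of the 10 had an unadjusted p under 0.05 and 5 did not overlap between groups, and with slide as a block Dlx1 was also called lower (-0.39, limma adjusted p = 0.0222). Of 6 tested oligodendrocyte precursor markers, 3 were called lower: Gpr17 by -3.61, Pdgfra by -1.76 and Olig1 by -1.63. Nkx2-2 at -0.91, Cspg4 at -0.27 and Olig2 at 0.15 were not called, and Sox10 was not matched to a probe; 4 of the 6 had an unadjusted p under 0.05. The summed level of that list was 3.70 to 4.32 in WT and 2.59 to 3.04 in Nkx2-1cKO, a fall without overlap, as for the MGE list. Olig2, with means of 0.87 in WT and 1.02 in Nkx2-1cKO, weighs most in that sum and did not fall. Every tested marker of the list passed the background flag on all arrays except Nkx2-2, which passed on 3 of the 4 Nkx2-1cKO arrays. The part of oligodendrocyte precursors in the fall of Bcan or Adamts5 was not tested.

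Markers of blood vessels, microglia and radial glia had summed levels that overlapped between the groups: 0 of 10, 0 of 8 and 0 of 9 genes were called by limma, with 0, 0 and 2 at an unadjusted p under 0.05. The summed level of the endothelium list was 11.4 to 16.8 in WT and 13.0 to 16.4 in Nkx2-1cKO, that of microglia 2.40 to 2.75 and 2.42 to 2.82, and that of radial glia 121 to 150 and 113 to 136. Among 11 pericyte and mesenchyme markers, which include Dcn, 0 were called and 1 had an unadjusted p under 0.05. Their summed level was 4.22 to 5.22 in the other WT arrays but 11.2 in WT replicate 4, against 4.40 to 5.12 in Nkx2-1cKO. WT replicate 4 also had the highest Dcn signal, 0.56, and it was the highest WT array for Bcan and Adamts9 but not for the other 8 members. Without it, the difference was -2.66 for Bcan, -0.19 for Adamts9 and -2.84 for Adamts5.

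**Figure D4:**
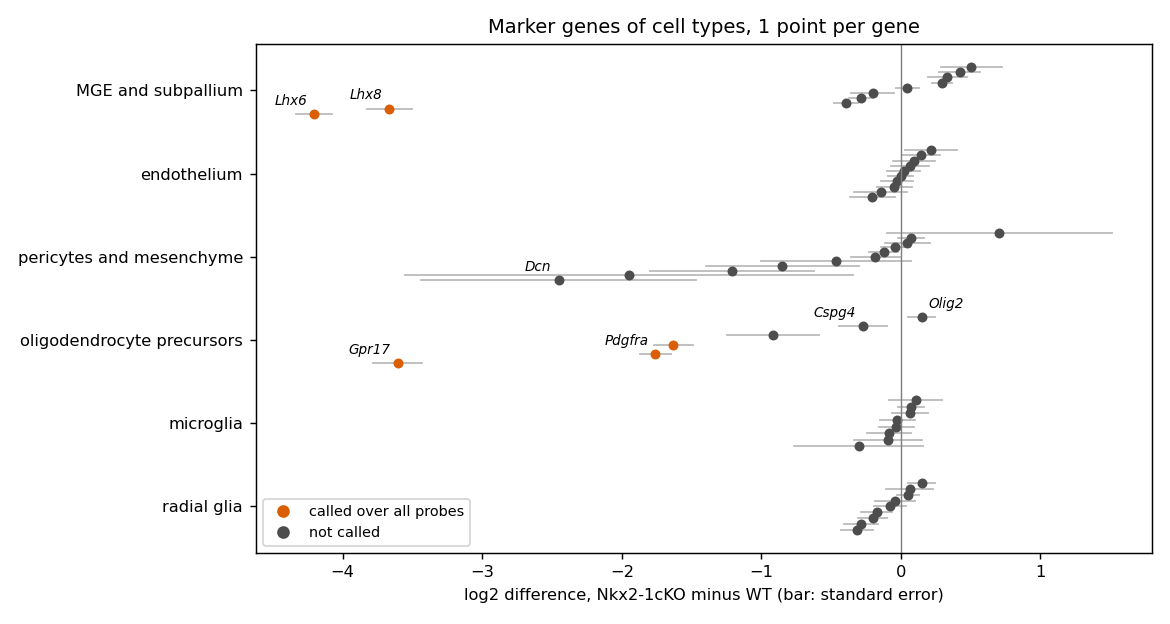
Difference in log2 signal, Nkx2-1cKO minus WT, on the x axis for the tested marker genes of 6 cell types or regions, 1 point a gene with its SE as a bar. Called genes (orange) are Lhx6 and Lhx8 of the MGE and subpallium list and Gpr17, Pdgfra and Olig1 of the oligodendrocyte precursor list, and the endothelial, microglial and radial glial points lie near 0.

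The scale between arrays bears on the smaller differences. Normexp raised the median of all probes from -0.04 to 0.20 and centring on the median raised it to 0.08, and relative to such a shift the differences of Adamts5 (-2.45 with normexp) and Bcan (-2.21) stayed large. Both genes were called lower under each scaling and background correction that was run, while Adamts1 was lost with centring and with normexp but not with quantile normalization. Adamts15 was lost with all 3, at -0.48 with quantile normalization, -0.40 with centring and -0.22 with normexp.

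**Figure D5:**
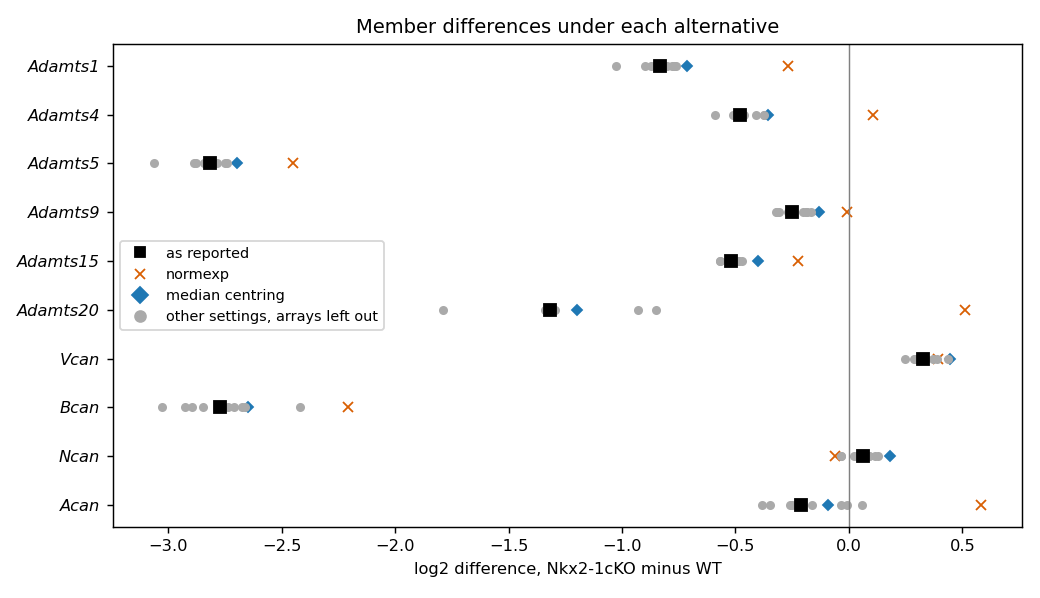
Difference in log2 signal, Nkx2-1cKO minus WT, on the x axis for each member, as reported (black squares), with normexp (crosses), with median centring (diamonds) and with every other setting or array left out (grey points). Adamts5 and Bcan stay below -2 throughout, and Adamts4, Adamts20 and Acan move above 0 with normexp.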

How the data were processed

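RNA of microdissected MGE from 4 WT and 4 Nkx2-1cKO samples at embryonic day 13.5 was labelled with Cy3 and hybridised to Agilent 1-colour arrays, 1 sample per array. The deposited tables come from Agilent Feature Extraction (version 10.1 per the submitters' processing notes, 10.7.3.1 per the file headers). The authors' spot intensity has its background subtracted but no scaling between arrays. Any normalization that followed is not given in the sources used here.

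After removal of controls and outliers, intensities were divided by each array's 75th percentile, log2-transformed and averaged over the spots of a probe. Accessions tied 24844 of the 41174 probes to 17178 symbols of a RefSeq table. Testing required the background flag to be passed on 4 or more of the 8 arrays, which left 31283 probes with 53 missing values. The groups were compared with lmFit and eBayes with a variance trend (limma 3.58.1, R 4.3.3), with Benjamini-Hochberg adjustment over all tested probes and a threshold of 0.05. The method was tested on simulated data. The tested probe with the highest mean signal represents a gene. Precision is limited by the number of arrays.

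The members and the lists were chosen with earlier results of these data known. The text names every member, every called gene of the pathway lists, the 2 genes of each list with the widest differences that did not pass, and the 3 genes most similar to each of the 2 members with the widest differences, of which 1 is not reported here. Has3, Adamts16 and the marker genes were named after their values were seen. The settings varied were the scaling (quantile, median), the background (normexp, offset 50), the filter (none, all 8 arrays), a block (slide, replicate number), the variance trend, averaging over probes per gene, and the removal of single arrays. Normexp used the median spot signal, because the files used here hold no mean signal. Deviations from the group means correlated at -0.206, -0.294, -0.194 and -0.481 between samples of equal replicate number. Arrays of equal number always lay on different slides, and slide was not removed before this check. A slide difference alone lowers such correlations, so they cannot show whether the samples were paired. The main comparison did not take the numbers as pairs.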

Additional observations from a re-analysis of the deposited data

Results flagged for a closer look

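In 4 of the 32 groups of 4 arrays examined for the members and the named receptor, 1 array stood far from the other 3 by Dixon's criterion, where chance gives about 1 in 20 groups, or 1.6 here. For Adamts4, Nkx2-1cKO replicate 2 was at -3.88, against -3.61 to -3.57 in the others. For the untested second probe of Adamts9, WT replicate 1 was at -5.37, against -7.92 to -7.83. For Vcan, WT replicate 1 was at -0.55, against -1.005 to -0.98. For Ptprd, WT replicate 4 was at 1.62, against 1.81 to 1.84. The cause of these was not tested.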

How the results depend on the processing

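Among the members, Adamts5 was called lower in all 17 alternatives and Bcan in 16, all but the replicate block. Each alternative fits again the contrast the members were chosen on, so these counts describe the dependence on processing only. The count of members called lower was 4 as reported, 2 with centring, 2 with normexp and 1 with the replicate block, and that of members called higher was 0 throughout. Of the wider pathway genes, 1 was called lower as reported, 0 with centring, 2 with slide as a block, 0 with the replicate block and 0 to 1 with an array left out, and 0 were called higher as reported and 1 with slide as a block. Over all probes, 192 were called lower as reported, against 115 with centring, 90 with normexp, 64 with the replicate block and 129 to 173 with an array left out. Of those higher, 132 were called as reported, 63 with normexp, 209 with slide as a block, 8 with the replicate block, 87 without the variance trend and 64 to 121 with an array left out. Whether equal replicate numbers pair the samples could not be decided, so the calls lost under that block remain a limit. The cause of the moves was not tested. Adamts20 gave a value in 12 alternatives only, since it fell below the filter in the rest. Dim probes limit what can be said of Adamts20, Adamts13, Has1 and the dimmer probes of Adamts1 and Adamts5, where signal was close to background on some arrays. The lowest signal well above background was -5.64 on WT replicate 1, against -7.15 to -6.75 on the other arrays.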
